A study of Saccharomyces cerevisiae with 6 samples.

Results

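Yeast nuclei hold 3 RNA polymerases, and the genes described here encode their subunits and the factors that load Pol I and Pol III onto DNA. The set was chosen by gene symbol in the array's annotation. It holds 47 of the 5656 genes that have a probe set of 1 symbol, 30 for subunits and 17 for factors. All 47 were on the array, with 56 of its 9275 probe sets other than controls. Of the 47 genes, 44 passed the filter on dim probe sets and were tested, among them all 30 subunits. RRN7, RRN11 and UAF30 did not pass it.

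The study compared Saccharomyces cerevisiae cells with an allele of histone H4 in which lysine 91 is replaced by alanine (K91A, 3 arrays) with cells of a strain with unchanged histone H4 (WT, 3 arrays). Both were grown in YPD, a rich glucose medium, and taken in exponential growth, and total RNA was measured on single-sample oligonucleotide arrays. Nothing in the labels says that the replicates were separate cultures, so a p-value here reflects the spread among these 6 arrays, which may be technical. The labels give no other genotype, but 2 genes that often serve as strain markers differed on the same arrays, TRP1 by 5.28 and ADE2 by -5.73 (log2, K91A minus WT), so the histone allele and other differences between the strains cannot be told apart.

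The 3 polymerases divide the transcription of the nucleus. Pol I makes the large ribosomal RNA precursor from the rDNA repeats, Pol II makes messenger RNA and many small nuclear RNAs, and Pol III makes transfer RNA, 5S ribosomal RNA and other short RNAs. Each is built on a pair of very large subunits that form the active centre, with smaller subunits around it, several of which are common to more than 1 enzyme. Pol I is brought to the rDNA by the upstream activating factor (UAF), which in yeast contains histones H3 and H4, by the core factor and by Rrn3. Pol III is placed on its genes by TFIIIC, which recognises promoter elements, and by TFIIIB, which TFIIIC recruits. Maf1 holds Pol III back when growth conditions worsen.

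Levels are log2(intensity + 16) after quantile normalization, and a difference is the mean of the K91A arrays minus the mean of the WT arrays on that scale. It was tested with limma, and a gene is said to have risen or fallen at a Benjamini-Hochberg adjusted p of 0.05 or less over all 6931 probe sets tested. Levels are relative to the other transcripts of the same array, so less of a transcript per cell and more of other RNA cannot be told apart. Median intensity was 745.25 on K91A 3 and 1828.2 to 3116.5 on the other 5 arrays. K91A 3 also has a description that calls it WT, against its title, and its values carry more decimals. The ratio of signal from the start of the ACT1 transcript to signal from its end, a measure of RNA integrity and labelling, was 0.865, 0.843 and 0.877 on the K91A arrays and 0.11, 0.114 and 0.365 on the WT arrays (exact permutation p = 0.1, two-sided, the smallest that 3 against 3 can give). The same ratio was 0.191, 0.285 and 0.48 against 0.1, 0.102 and 0.177 for SRB4 (exact permutation p = 0.1), and for SPT15 it overlapped between the groups, with 0.466, 0.675 and 0.302 against 0.14, 0.0837 and 0.445 (exact permutation p = 0.2).

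Transcripts of polymerase subunits were mostly lower in K91A, and those of the factors tested were not. Of the 30 subunits 18 fell and 1 rose, where 14.8% of all probe sets fell and 15.4% rose (30.2% together). The subunits had a median difference of -0.99, against -0.07 for all probe sets tested. Of the 14 factors tested 0 fell by limma, 2 of them with an unadjusted p under 0.05 and a negative difference, and 1 rose, with a median of 0.23. The factor median turned negative without K91A 3 (-0.16) and on the values as deposited (-0.45, where that of all probe sets was -0.82). For 25 of the 30 subunits the 3 K91A arrays all lay below the 3 WT arrays, which held for 27.5% of all probe sets tested. For 1 subunit they all lay above (23.7% of all probe sets). Whether subunits and factors differed from each other was not tested.

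**Figure D1:**
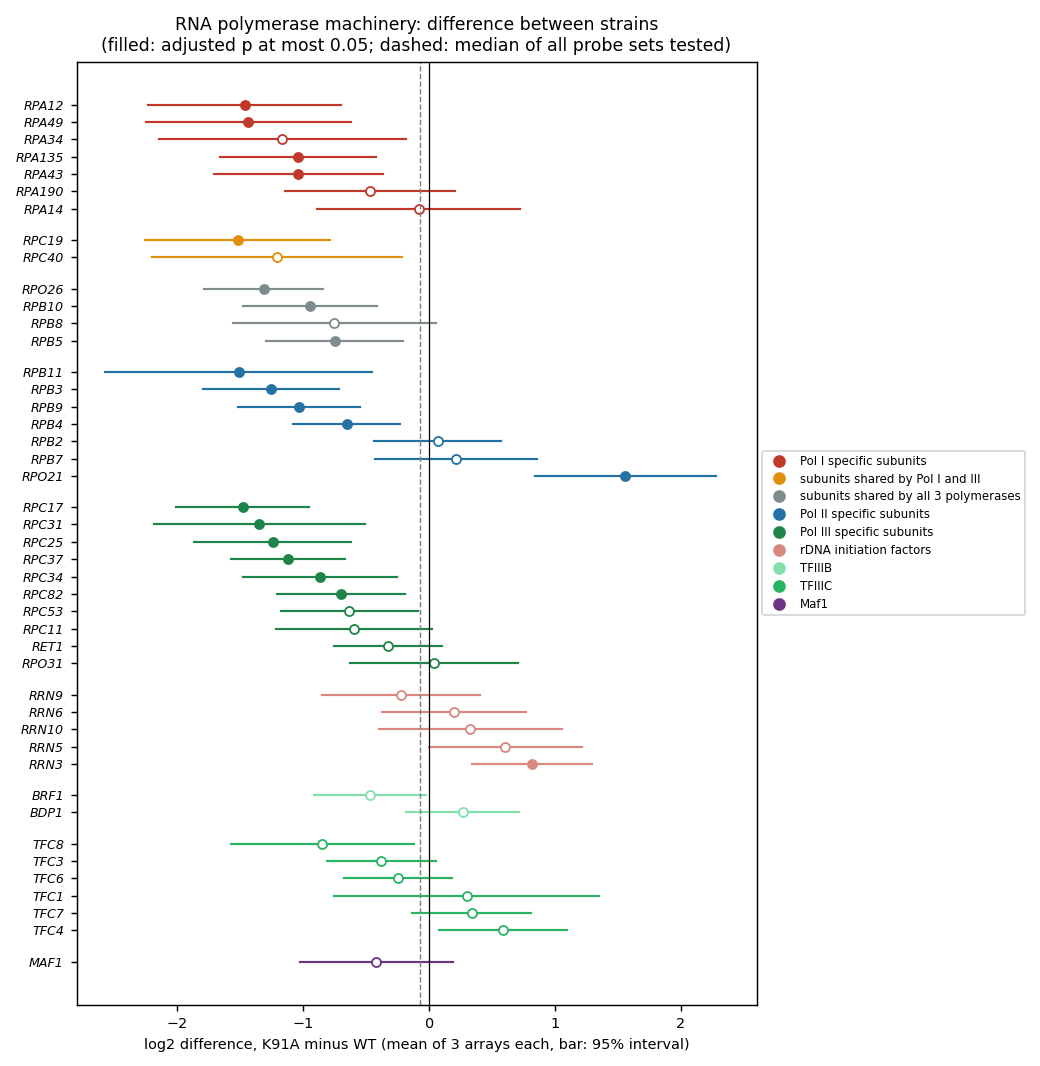
Log2 difference, K91A minus WT, of the 44 genes tested (points, mean of 3 arrays each) with its 95% interval (bars), coloured by group. Filled points have an adjusted p of 0.05 or less in limma. The dashed line is the median of all probe sets tested, -0.07. Most subunits lie left of it, RPO21 lies farthest right at 1.56, and the factors lie on both sides.

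Pol I has 7 subunits of its own on this list, and 4 of them fell, with differences from -1.47 to -1.04. Of all probe sets tested 14.8% fell. RPA135 (YPR010C), the second largest subunit, had log2 levels of 12.85, 11.90 and 12.44 on K91A 1, 2 and 3 and of 13.49, 13.35 and 13.48 on WT 1, 2 and 3. Its difference was -1.04 (SE 0.26, adjusted p = 0.0249), a 2.06-fold lower level. The WT arrays lay within 0.2 of each other in this gene, while K91A 2 stood lowest. RPA49 (YNL248C), which with RPA34 forms a module that helps Pol I to initiate, had 11.49, 10.34 and 11.54 in K91A and 12.38, 12.59 and 12.70 in WT, a difference of -1.44 (SE 0.34, adjusted p = 0.0219). RPA12 (YJR063W), which takes part in RNA cleavage, had 10.19, 9.15 and 10.30 in K91A and 11.39, 11.35 and 11.31 in WT, a difference of -1.47 (SE 0.32, adjusted p = 0.017). RPA43 (YOR340C), a stalk subunit that contacts Rrn3, had 11.78, 10.88 and 11.73 in K91A and 12.52, 12.66 and 12.33 in WT, a difference of -1.04 (SE 0.28, adjusted p = 0.0331). In all 4 genes the groups did not overlap, and K91A 2 was the lowest of the 6 arrays. Of all probe sets tested, 27.5% had all K91A arrays below the WT arrays. The calls rest on the same 6 values, so the lack of overlap adds no support to them.

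The other 3 subunits of Pol I did not pass. RPA34 (YJL148W) had 10.77, 9.62 and 11.28 in K91A and 11.47, 11.83 and 11.86 in WT, a difference of -1.17 (adjusted p = 0.0722), and without K91A 3 it passed at -1.50 (adjusted p = 0.0245). Its K91A arrays were spread over more than the gap between the groups. RPA14 (YDR156W), the partner of RPA43 in the stalk, had a difference of -0.08 (95% interval -0.89 to 0.72), with K91A 3 low at 12.11 and K91A 1 and 2 at 13.29 and 13.21. RPA190 (YOR341W), the largest subunit, had 12.32, 11.39 and 12.33 in K91A and 12.40, 12.52 and 12.54 in WT by its brightest probe set, a difference of -0.47 (95% interval -1.15 to 0.21, adjusted p = 0.247). The other 3 RPA190 probe sets tested had 0.64, 0.41 and -0.01 and did not pass. The 3 left out as dim had -1.45, -0.57 and -0.98, so the 7 probe sets of this gene gave no single direction. RPA190 lies next to RPA43 on chromosome XV, and these were the only neighbours among the 47 genes.

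The Pol I calls depended on no single K91A array but did depend on the WT arrays. So did calls over the whole array, where 14.8% of all probe sets fell. Without WT 1, WT 2 and WT 3 that share was 5.64%, 5.22% and 9.61%. Calls for RPA135, RPA49, RPA43 and RPA12 each held without any 1 K91A array. Without WT 1 their adjusted p was 0.0885, 0.0602, 0.0989 and 0.0641, and without WT 2 it was 0.0781, 0.0747, 0.115 and 0.0641, with differences of -1.51 to -0.95. Without WT 3 RPA135, RPA49 and RPA43 had 0.0634, 0.0694 and 0.0631, and RPA12 passed. The ACT1 ratio was higher on K91A arrays (0.861 ± 0.0173 against 0.196 ± 0.146, SD, n = 3 each), and its part in these differences was not tested.

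Subunits common to more than 1 polymerase also fell. RPC19 (YNL113W), which with RPC40 forms the platform on which Pol I and Pol III assemble, had 10.87, 9.96 and 11.12 in K91A and 12.10, 12.22 and 12.19 in WT. Its difference of -1.52 (SE 0.31, adjusted p = 0.0135) was the most negative among the 44 listed genes tested, though without WT 2 the adjusted p was 0.0549. RPC40 (YPR110C) had 12.33, 11.97 and 10.74 in K91A and 12.65, 12.76 and 13.24 in WT, a difference of -1.21 that did not pass (adjusted p = 0.0682). The K91A 3 array was more than 1 log2 unit below the other K91A arrays in this gene, and without K91A 1 it passed at -1.58 (adjusted p = 0.0461).

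Of the 4 listed subunits found in all 3 enzymes, 3 fell, where 14.8% of all probe sets fell. RPO26 (YPR187W) had 10.70, 11.01 and 10.69 in K91A and 11.89, 12.31 and 12.15 in WT, a difference of -1.31 (SE 0.20, adjusted p = 0.00518). This call held without any 1 of the 6 arrays. RPB10 (YOR210W), a zinc-binding subunit, had 12.29, 11.87 and 12.44 in K91A and 12.93, 13.13 and 13.37 in WT, a difference of -0.94 (SE 0.22, adjusted p = 0.0215). RPB5 (YBR154C), which reaches toward the incoming DNA, had 12.40, 11.68 and 12.15 in K91A and 12.92, 12.82 and 12.73 in WT, a difference of -0.75 (SE 0.23, adjusted p = 0.0462). The groups did not overlap in these genes, where 27.5% of all probe sets had all K91A arrays below the WT arrays. The RPB10 call ended without WT 1, WT 2 or WT 3 (adjusted p = 0.053, 0.0795 and 0.0585), and the RPB5 call without those (0.144, 0.136 and 0.0811) and without K91A 3 (0.0742). RPB8 (YOR224C) had 11.73, 10.74 and 12.02 in K91A and 12.41, 12.24 and 12.10 in WT, a difference of -0.75 that did not pass (adjusted p = 0.135). RPC10, the other subunit of all 3 enzymes, is not on the list of 47 and fell as well, by 0.84 on the log2 scale (adjusted p = 0.0179).

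**Figure D2:**
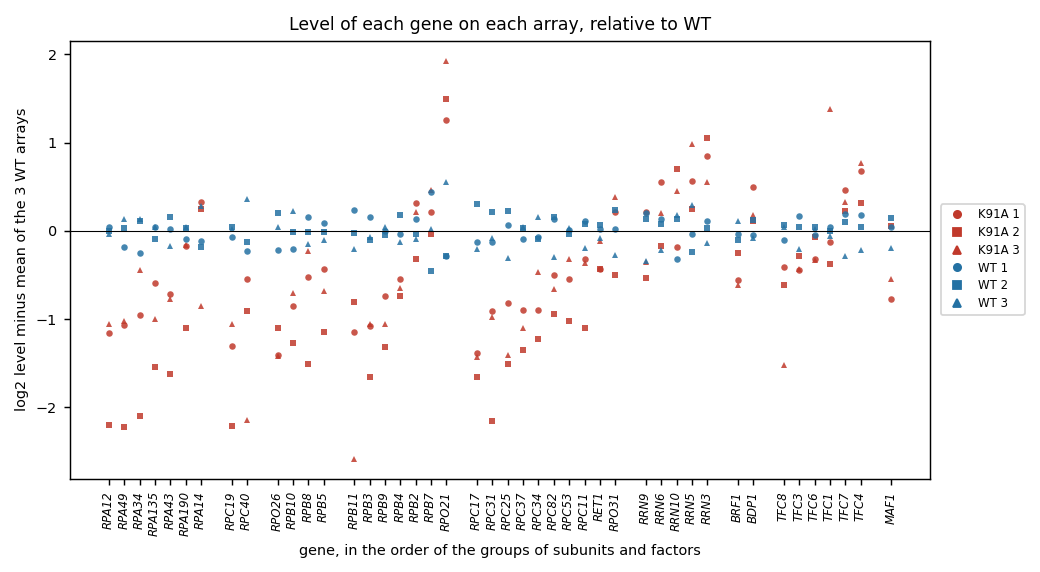
Level of each gene tested on each array (log2), minus the mean of its 3 WT arrays, with K91A arrays in red and WT arrays in blue, in the order of the groups from Pol I subunits (left) to Maf1 (right). Among the subunits the red points lie mainly below 0 and the squares of K91A 2 are often the lowest, while RPO21 and RRN3 have red points above the blue ones.

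Pol II has 7 subunits of its own on the list, and they went both ways, with 4 lower and 1 higher. Of all probe sets tested 14.8% fell and 15.4% rose. RPB3 (YIL021W), the counterpart of RPC40 in the assembly platform of Pol II, had 11.11, 10.54 and 11.14 in K91A and 12.35, 12.09 and 12.12 in WT, a difference of -1.26 (SE 0.23, adjusted p = 0.00919). The call held without any 1 of the 6 arrays. RPB11 (YOL005C), its partner, had 12.26, 12.59 and 10.82 in K91A and 13.64, 13.38 and 13.19 in WT, a difference of -1.51 (SE 0.45, adjusted p = 0.0426). K91A 3 lay far below the other K91A arrays in RPB11, and with K91A 3 counted as WT the difference was -0.33. RPB9 (YGL070C), which takes part in start site choice and RNA cleavage, had 11.24, 10.67 and 10.92 in K91A and 11.98, 11.93 and 12.03 in WT, a difference of -1.03 (SE 0.20, adjusted p = 0.0121). RPB4 (YJL140W), a stalk subunit, had 11.69, 11.50 and 11.59 in K91A and 12.21, 12.42 and 12.11 in WT, a difference of -0.65 (SE 0.18, adjusted p = 0.0338). In each of these 4 genes all K91A arrays lay below all WT arrays, as they did for 27.5% of all probe sets tested.

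The 1 subunit transcript that rose was RPO21 (YDL140C), the largest subunit of Pol II, which carries the repeated C-terminal domain. It had 12.89, 13.12 and 13.56 in K91A and 11.35, 11.35 and 12.19 in WT, a difference of 1.56 (SE 0.30, 95% interval 0.84 to 2.28, adjusted p = 0.0116). This is a 2.95-fold higher level, and the groups did not overlap, with WT 3 nearest to the K91A arrays. On the values as deposited, where the median of all probe sets was -0.82, RPO21 had 0.76 and did not pass (adjusted p = 0.401). RPB2 (YOR151C), the second largest subunit, had 13.65, 13.01 and 13.55 in K91A and 13.47, 13.29 and 13.24 in WT, a difference of 0.07 (95% interval -0.44 to 0.57). RPB7 (YDR404C), the partner of RPB4 in the stalk, had 0.21 (95% interval -0.43 to 0.86). Both overlapped between the groups. Among the Pol II calls, that for RPO21 ended without WT 2 (1.41, adjusted p = 0.0526) and that for RPB9 without WT 1 or WT 2 (0.053 and 0.0526). The RPB11 call ended without WT 1, WT 2, WT 3 or K91A 1 (0.125, 0.113, 0.0842 and 0.062) and the RPB4 call without WT 1, WT 2, K91A 1 or K91A 3 (0.103, 0.146, 0.0639 and 0.067).

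**Figure D3:**
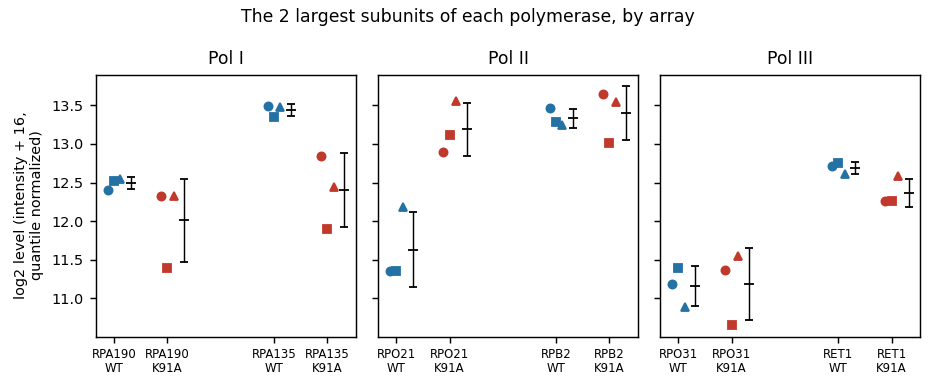
Log2 level (intensity + 16, quantile normalized) of the 2 largest subunits of Pol I, Pol II and Pol III on each array, with WT in blue and K91A in red (circle, square and triangle for replicates 1, 2 and 3). The black bars are the mean and SD of 3 arrays. RPA135 is lower and RPO21 higher in K91A, while RPB2 and RPO31 overlap between the groups.

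Pol III has 10 subunits of its own, and 6 of them fell, from its stalk, its RPC53 and RPC37 module and its initiation module. The share of all probe sets that fell was 14.8%. RPC17 (YJL011C) and RPC25 (YKL144C) form its stalk, the part that meets the initiation factors. RPC17 had 9.66, 9.39 and 9.61 in K91A and 10.92, 11.35 and 10.84 in WT, a difference of -1.48 (SE 0.22, adjusted p = 0.0049). RPC25 had 10.23, 9.54 and 9.64 in K91A and 11.12, 11.28 and 10.74 in WT, a difference of -1.24 (SE 0.26, adjusted p = 0.0154). Both were more than 2-fold lower, and the arrays of the groups were well apart. RPC37 (YKR025W), which with RPC53 acts in termination and reinitiation, had 11.25, 10.80 and 11.05 in K91A and 12.06, 12.18 and 12.20 in WT, a difference of -1.12 (SE 0.19, adjusted p = 0.0075). RPC17 and RPC37 kept their calls without any 1 of the 6 arrays. RPC17 was dim in K91A, however, with a mean level at percentile 24.1 of the array, against 51.7 in WT. How far background signal affected the size of the RPC17 difference was not tested.

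The module of RPC82, RPC34 and RPC31, which opens the promoter together with TFIIIB, fell in all its members. RPC31 (YNL151C) had 10.92, 9.68 and 10.86 in K91A and 11.71, 12.05 and 11.75 in WT, a difference of -1.35 (SE 0.35, adjusted p = 0.0288). RPC34 (YNR003C) had 9.61, 9.28 and 10.05 in K91A and 10.44, 10.42 and 10.67 in WT, a difference of -0.86 (SE 0.26, adjusted p = 0.0439). RPC82 (YPR190C) had 11.01, 10.57 and 10.85 in K91A and 11.64, 11.67 and 11.22 in WT, a difference of -0.70 (SE 0.22, adjusted p = 0.0476). The groups did not overlap in any of these genes, but the last pair lay close to the threshold. All K91A arrays lay below the WT arrays for 27.5% of all probe sets tested. The RPC82 call ended without any 1 array other than WT 3 (adjusted p = 0.0655 to 0.17) and with no filter on dim probe sets (0.0594), and the RPC34 call without any 1 array other than K91A 3 (0.0661 to 0.122). The RPC31 call ended without WT 1, WT 2 or WT 3 (0.0763, 0.0998 and 0.0727), and that of RPC25 without WT 1 or WT 2 (0.0653 and 0.0716).

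The remaining Pol III subunits did not pass. RPC53 (YDL150W) had a difference of -0.63 (95% interval -1.18 to -0.09, adjusted p = 0.0771), and it passed without K91A 3 (-0.78, adjusted p = 0.0425). RPC11 (YDR045C), which cleaves RNA, had -0.60 (95% interval -1.21 to 0.02). The pair of large subunits lay nearer to 0. RET1 (YOR207C) had -0.33 (95% interval -0.75 to 0.10) and RPO31 (YOR116C), the largest, had 0.04 (95% interval -0.63 to 0.70). Of these 4 genes only RPO31 overlapped between the groups. Over all probe sets tested, the K91A arrays all lay below the WT arrays in 27.5% and all above in 23.7%.

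Set side by side, the 3 enzymes had like shares of subunits that fell. The count was 4 of 7 for subunits of Pol I alone, with a median difference of -1.04. It was 4 of 7 for Pol II alone, where 1 rose, with -0.65, and 6 of 10 for Pol III alone, with -0.78. Of all probe sets tested 14.8% fell and 15.4% rose, with a median of -0.07. With the shared subunits included, the count was 8 of 13, 7 of 11 and 10 of 16. These counts overlap because shared subunits enter more than 1 of them. Subunits in like positions can be compared across enzymes by their differences. The platform subunits RPC40, RPC19, RPB3 and RPB11 ranged from -1.52 to -1.21. The cleavage subunits RPA12, RPB9 and RPC11 had -1.47, -1.03 and -0.60. In the stalks, RPA43 and RPA14 had -1.04 and -0.08, RPB4 and RPB7 had -0.65 and 0.21, and RPC25 and RPC17 had -1.24 and -1.48. The largest subunits RPA190, RPO21 and RPO31 had -0.47, 1.56 and 0.04, and the second largest, RPA135, RPB2 and RET1, had -1.04, 0.07 and -0.33. RPA135 was thus the 1 of these 6 that fell. Differences between enzymes were not tested.

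Among the K91A arrays, K91A 2 had the lowest subunit levels. It was the lowest of the 3 for 24 of the 30 subunits (80%), where it was the lowest for 45.4% of all probe sets with 6 values. Relative to the WT mean, the median subunit lay at -0.65 on K91A 1, -1.19 on K91A 2 and -0.74 on K91A 3, while the median of all probe sets lay between -0.05 and -0.02 on these arrays. For Pol I subunits the medians were -0.72, -1.63 and -0.84, for Pol II -0.56, -0.75 and -0.66, and for Pol III -0.69, -1.17 and -0.56. All 3 K91A arrays thus lay below WT in each enzyme. Without K91A 1, 15 subunits fell (10.8% of all probe sets), without K91A 2, 16 (16.8%), and without K91A 3, 17 (14.5%), with medians from -1.12 to -0.74. Without WT 1, 5 subunits fell (16.7%, against 5.64% of all probe sets), without WT 2, 4 fell (13.3%, against 5.22%), and without WT 3, 10 fell (33.3%, against 9.61%), while the medians were -1.01, -0.95 and -0.92. With K91A 3 counted as WT, limma called 0 probe sets of the whole array, with 1056 at an unadjusted p under 0.05, 11 of them lower subunits.

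**Figure D4:**
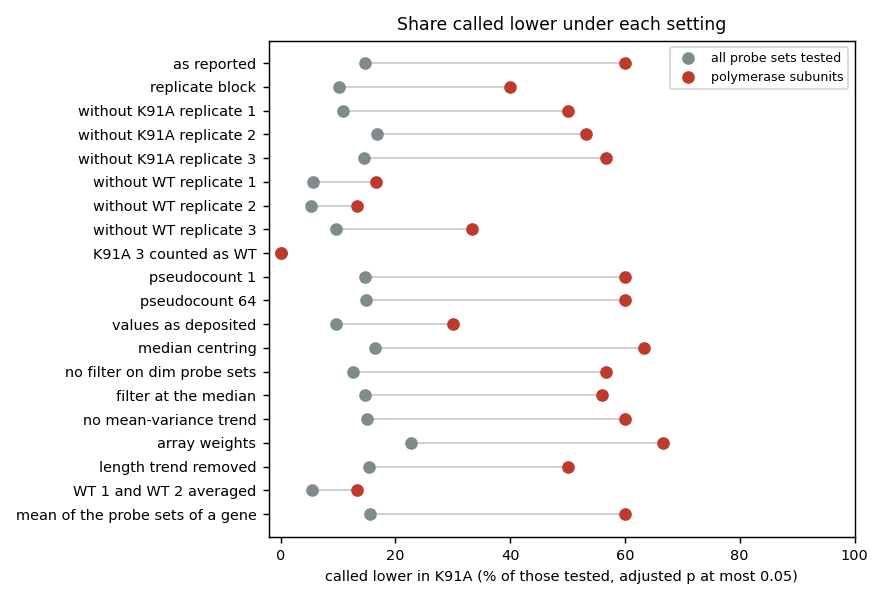
Share of the polymerase subunits (red) and of all probe sets tested (grey) called lower in K91A at an adjusted p of 0.05, under each setting of the analysis. The subunits lie at 60% against 14.8% as reported, and above the grey points in every setting drawn other than the one that counts K91A 3 as WT, where both are 0. The values were 12 of 30 against 10.1% with the replicate block, 9 against 9.68% as deposited, 4 against 5.55% with WT 1 and WT 2 averaged and 20 against 22.7% with array weights.

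Subunits that fell were mostly short genes, and length moved with the difference over the whole array. Over 5013 protein-coding genes tested, Spearman's rho of difference with annotated gene length was 0.215, and over the 30 subunits it was 0.387, a description across genes that share the same 6 arrays. Protein-coding genes of 78 to 933 nt fell in 20.8% of cases, those of 936 to 1659 nt in 13.3% and those of 1662 nt or more in 9.12%. The subunits in these 3 classes fell in 12 of 17, 4 of 6 and 2 of 7 cases. The 7 long ones are the pairs of large subunits and RPC82. The factors were longer, with a median length of 1788 nt against 729 nt for the subunits.

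With the trend on gene length removed from each array, 15 subunits fell (50%, against 15.4% of probe sets) and the subunit median was -0.87. RPA190 (-0.87, adjusted p = 0.0388) and RET1 (-0.63, adjusted p = 0.0274) passed in that setting. RPB5 (-0.53, adjusted p = 0.11), RPB10 (-0.66, 0.0723), RPB4 (-0.44, 0.091), RPB11 (-1.23, 0.0696) and RPC34 (-0.76, 0.0565) no longer did. RPO21 stayed higher at 1.15 (adjusted p = 0.0148). Among the factors, BRF1 (-0.61, adjusted p = 0.0439), TFC3 (-0.69, 0.0327) and TFC8 (-0.98, 0.048) passed as lower, so the count of 0 factors that fell depends on this setting. With array weights BRF1, TFC3, TFC8 and MAF1 passed as lower, at -0.75 to -0.49.

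**Figure D5:**
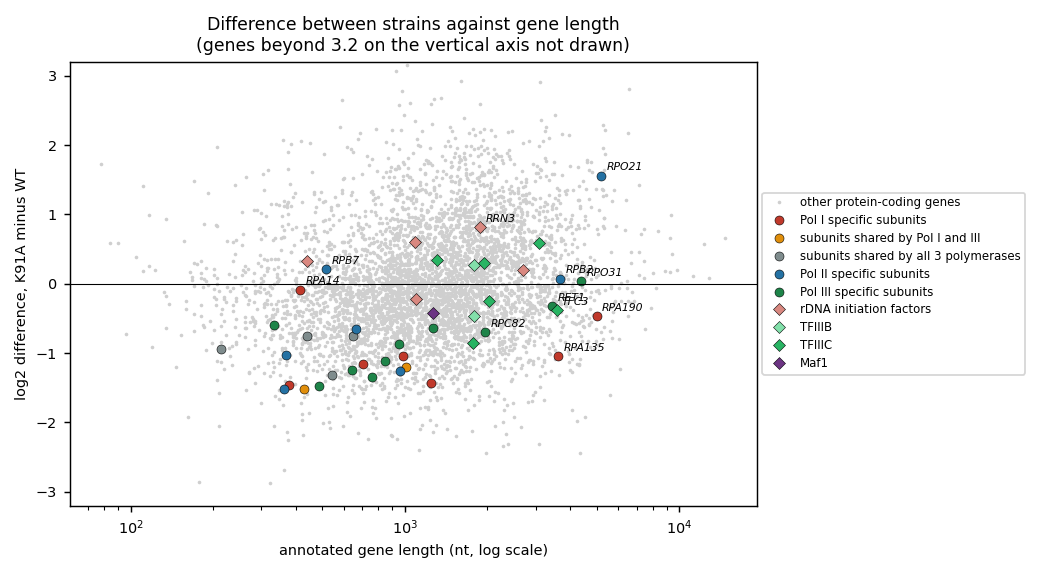
Log2 difference, K91A minus WT, against annotated gene length (nt, log axis) for protein-coding genes tested (grey) and for subunits (circles) and factors (diamonds), coloured by group. The 7 genes beyond 3.2 in either direction are not drawn. Most subunits of the shorter genes lie between -1.6 and -0.5, while the large subunits spread from RPA135 at -1.04 to RPO21 at 1.56.

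Of the 8 listed factors that bring Pol I to the rDNA, 5 were tested, with a median difference of 0.33. By limma 1 of them rose and 0 fell, where 15.4% of all probe sets rose and 14.8% fell. UAF30, which did not pass the filter, had all K91A arrays below the WT arrays. Whether these factors differed from the Pol I subunits was not tested. RRN3 (YKL125W), which binds Pol I and makes it competent to initiate, rose. It had 11.48, 11.68 and 11.18 in K91A and 10.74, 10.66 and 10.49 in WT, a difference of 0.82 (SE 0.20, adjusted p = 0.0241). The groups did not overlap, yet the call ended without K91A 1, WT 1, WT 2 or WT 3 (adjusted p = 0.0665, 0.0717, 0.0863 and 0.0628), and as deposited the value was 0.13. RPA43, the Pol I subunit that Rrn3 contacts, had a difference of the opposite sign (-1.04).

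UAF, the factor with histones H3 and H4 among its parts, showed no call among the 3 of its 4 listed genes that were tested. RRN5 (YLR141W) had 11.31, 10.99 and 11.73 in K91A and 10.70, 10.50 and 11.03 in WT, a difference of 0.60 (adjusted p = 0.116), and its other tested probe set had 0.50. The K91A arrays of RRN5 were high, but K91A 2 lay just below WT 3. RRN9 (YMR270C) had 12.66, 11.92 and 12.10 in K91A and 12.65, 12.58 and 12.11 in WT, a difference of -0.22 (adjusted p = 0.552). RRN10 (YBL025W) had 9.37, 10.25 and 10.00 in K91A and 9.23, 9.68 and 9.73 in WT, a difference of 0.33 (adjusted p = 0.444). UAF30 (YOR295W) did not pass the filter, with 1 array far below the rest: it had 9.78, 9.64 and 6.43 in K91A and 10.63, 10.54 and 10.87 in WT. Without K91A 3 it was bright enough to be tested, with a difference of -0.95 (adjusted p = 0.0218). With no filter and all 6 arrays the difference was -2.06 (adjusted p = 0.107).

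In the core factor, RRN6 (YBL014C) had a difference of 0.20 (95% interval -0.37 to 0.77) and overlapped between the groups. The other members were dim. RRN7 (YJL025W) had 10.32, 9.26 and 10.74 in K91A and 9.53, 9.45 and 8.55 in WT, and RRN11 (YML043C) had 8.91, 7.77 and 9.30 in K91A and 8.22, 8.99 and 7.89 in WT. Their arrays overlapped, with differences of 0.93 (adjusted p = 0.157) and 0.29 (adjusted p = 0.664) when no filter was used. Without K91A 2, its lowest K91A array, RRN7 was bright enough to be tested, at 1.39 (adjusted p = 0.0415). It passed the filter there through its brighter K91A arrays, so this value is no support for a rise. RRN7 was also tested without WT 2 (1.04, adjusted p = 0.23) and without WT 3 (0.63, adjusted p = 0.367), and did not pass.

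The Pol III factors showed 0 calls by limma among 8 genes tested, 3 of them with an unadjusted p under 0.05. Of all probe sets tested 30.2% were called in either direction. In TFIIIB, BRF1 (YGR246C) had 11.53, 11.84 and 11.48 in K91A and 12.06, 11.99 and 12.20 in WT, a difference of -0.47 (adjusted p = 0.0998), and it passed without K91A 2 (-0.59, adjusted p = 0.0388). BDP1 (YNL039W) had 11.66, 11.27 and 11.34 in K91A and 11.11, 11.28 and 11.08 in WT, a difference of 0.27 (adjusted p = 0.319). BRF1 was thus lower on every K91A array, and BDP1 overlapped between the groups.

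The 6 subunits of TFIIIC had a median difference of 0.03 and went both ways. TFC8 (YPL007C) had 10.86, 10.66 and 9.75 in K91A and 11.17, 11.34 and 11.31 in WT, a difference of -0.85 (adjusted p = 0.0771). TFC3 (YAL001C), which contacts the B box of the promoter, had 11.16, 11.32 and 11.17 in K91A and 11.77, 11.64 and 11.39 in WT, a difference of -0.38 (adjusted p = 0.156). TFC6 (YDR362C) had -0.24 (95% interval -0.67 to 0.18). These 3 belong to the arm of TFIIIC that binds the B box, and in each of them the K91A arrays lay below the WT arrays. The other arm, which faces the start site, holds TFC4, TFC7 and TFC1. TFC4 (YGR047C), which recruits TFIIIB, had 11.02, 10.66 and 11.11 in K91A and 10.52, 10.38 and 10.12 in WT, a difference of 0.59 (adjusted p = 0.0782), and it passed without K91A 2 (0.74, adjusted p = 0.0378). TFC7 (YOR110W) had 12.25, 12.02 and 12.12 in K91A and 11.98, 11.89 and 11.51 in WT, a difference of 0.34 (adjusted p = 0.237). In both of these the K91A arrays lay above the WT arrays. Over all probe sets tested, the K91A arrays all lay below the WT arrays in 27.5% and all above in 23.7%. With all arrays used, 0 of the 6 TFIIIC genes passed limma's test, and a difference between the arms was not tested. TFC1 (YBR123C) had 0.30 (95% interval -0.75 to 1.35), and K91A 3 stood apart at 12.21 against 10.71 and 10.45 on K91A 1 and 2.

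MAF1 (YDR005C), the repressor of Pol III, had 10.88, 11.71 and 11.10 in K91A and 11.69, 11.80 and 11.46 in WT. Its difference of -0.42 did not pass (95% interval -1.03 to 0.19, adjusted p = 0.251), and K91A 2 lay among the WT arrays. Without K91A 2 it passed (-0.68, adjusted p = 0.0419).

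Other genes of these pathways were counted from fixed lists. The counts are to be read against the 14.8% of all probe sets that fell and the 15.4% that rose (30.2% together). Of 10 further genes of Pol I and Pol III transcription 4 fell and 0 rose by limma (0 at an unadjusted p under 0.05), with a median difference of -0.35. Besides RPC10 they included CKA1 and CKA2, the catalytic subunits of casein kinase 2, which phosphorylates parts of the Pol III machinery, at -1.57 (adjusted p = 0.00745) and -0.85 (adjusted p = 0.0226). Of 8 genes for assembly and import of polymerases 0 passed limma's test, 1 of them with an unadjusted p under 0.05, and the median was -0.33.

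The Pol II machinery beyond its subunits had calls in both directions, to be read against the 15.4% of all probe sets that rose and the 14.8% that fell. Of 15 general factors tested 2 fell, TFB5 (-1.23, adjusted p = 0.00324) and TOA2 (-0.59, adjusted p = 0.0464), and 1 rose, SUA7, which encodes TFIIB (0.97, adjusted p = 0.0195). Of 14 TFIID subunits 1 fell, TAF10 (-1.03, adjusted p = 0.00821), and of 12 elongation factors tested 3 fell, DST1 (-0.80), CTK2 (-0.69) and SPT4 (-0.71). Of 24 Mediator subunits tested 5 rose and 1 fell. None of these counts was tested against the background shares. The most significant of the Mediator genes were SSN2 (1.68, adjusted p = 0.00769) and GAL11 (0.96, adjusted p = 0.0139), which rose, and SRB7 (-1.04, adjusted p = 0.0143), which fell. SSN2 and GAL11 are long genes (4263 and 3246 nt) and SRB7, TFB5 and SPT4 are short (423, 219 and 309 nt). The medians of these 4 lists were -0.36, -0.12, -0.37 and -0.27, against -0.07 for all probe sets tested.

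Among 6 tested regulators of ribosome production genes 2 rose and 0 fell by limma (0 lower at an unadjusted p under 0.05), where 15.4% of all probe sets rose. They were SCH9, a kinase downstream of TORC1 (1.01, adjusted p = 0.0086), and STB3, which binds promoters of ribosome production genes (0.82, adjusted p = 0.0314). All 6 had positive differences, from 0.22 to 1.01. Their median length was 2032.5 nt. Protein-coding genes of 1662 nt or more rose in 22.2% of cases and had a median difference of 0.15.

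The few RNAs made by Pol I and Pol III that were tested here, without tRNA, were lower on the same arrays. All 4 tested Pol III transcripts, of 11 listed, fell, where 14.8% of all probe sets tested fell. They are 92 to 369 nt long, and 20.8% of protein-coding genes of 78 to 933 nt fell. SNR6, the spliceosomal U6 RNA, had 13.30, 13.03 and 13.34 in K91A and 14.76, 14.74 and 14.92 in WT (difference -1.58, adjusted p = 0.00185). RPR1, the RNA of RNase P, had -1.26 (adjusted p = 0.00387) and SNR52 had -0.94 (adjusted p = 0.0378). The probe set of 5S RNA named RDN5-1 had -0.84 (adjusted p = 0.00649). How far the 5S and other ribosomal RNA probe sets tell repeated or similar sequences apart was not examined. Of 3 Pol I transcripts tested, from 12 listed, RDN18-1 (-3.58) and the precursor RDN37-1 (-1.35) fell, and RDN25-1 (-1.80, adjusted p = 0.0556) did not pass. These RNAs differ from messenger RNA in length and end structure, and whether the labelling of the arrays moved with them was not tested.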

How the data were processed

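Total RNA of 6 yeast samples was measured on single-sample arrays. The authors deposited linear intensities, 1 for each probe set on each array. The software, background correction and scaling behind these deposited intensities are not given in the sources used here. Samples were grouped by title, K91A 3 included.

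Gene names came from the platform annotation, updated by Entrez identifier from RefSeq genes (R64), which also gave lengths: these cover coding sequence and introns, without UTRs. Values were set to log2(intensity + 16) and quantile normalized. Left out were 60 controls, 33 probe sets with under 2 values in a group and the 2311 dimmest (25%). The tests came from limma 3.58.1 (R 4.3.3), with lmFit and with eBayes set to follow the mean-variance trend. Adjusted p-values are Benjamini-Hochberg over all 6931 probe sets. The brightest probe set stood for a gene. The procedure was run on simulated data in which both groups had the same spread in each probe set. It therefore cannot speak to genes of unequal spread, such as RPA12 (SD 0.63 in K91A and 0.04 in WT). The number of arrays limits the precision.

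By rule, values on every array are given for genes past the threshold and for up to 4 genes with the smallest p of each group, and other lists are named by up to 3 genes past the threshold. Outside it, TRP1, ADE2, RDN25-1 and SNR52 were named, and all values were given for RPA34, RPA190, RPB2 and the untested RRN7, RRN11 and UAF30, chosen after their values were seen. The genes and lists were chosen with earlier results of these data known. The 19 alternatives are in the closing section. Promoter motifs were not analysed here. Same-numbered arrays deviated from their group means with correlations of 0.166, -0.151 and -0.00523, so the numbers were not taken to pair samples.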

Additional observations from a re-analysis of the deposited data

How the results depend on the processing

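Without 1 array at a time, the probe sets called ranged from 841 to 2300 (2091 as reported), the 47 genes' calls from 4 to 18 lower (18) and 0 to 4 higher (2), the subunits that fell from 4 to 17 (18) and the factors that fell from 0 to 2 (0). The subunit median then ranged from -1.12 to -0.74 (-0.99) and the factor median from -0.16 to 0.35 (0.23). The factor that fell without K91A 3 was UAF30, at -0.95.

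With K91A 3 counted as WT limma called 0 probe sets and 0 of the 47 genes in either direction, and the factor median was 0.0378. On the values as deposited 703 probe sets were called, with 10 of the 47 genes lower, 9 of them subunits and 1 the factor UAF30, and 0 higher, and the medians were -1.77 for subunits and -0.45 for factors, where that of all probe sets was -0.82. The split of higher to lower calls among all probe sets was then 32 to 671, against 1068 to 1023. With WT 1 and WT 2 averaged, 877 probe sets were called, with 4 of the 47 genes lower, all subunits, and 0 higher. A filter at the median, which tests fewer probe sets, gave 1372 calls. Array weights gave 4 genes higher, 4 factors lower and a subunit median of -0.77. With the length trend removed 3 factors fell and their median was 0.0461. The causes were not tested.

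With the replicate number as a block 12 subunits fell and 1535 probe sets were called. The block ended calls for RPA43, RPB5, RPB4, RPC82, RPC34 and RPC31. Only K91A 1 correlated best with its own number. A called gene changed sign in 0 of the alternatives, and pseudocounts of 1 and 64, no mean-variance trend and the mean of a gene's probe sets each left 18 subunits lower. Detection calls were not used here, so signal over background is unknown.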
